A study of Mus musculus with 3 samples.

Results

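The genes described here are 10 writers, erasers and copiers of 2 repressive chromatin marks, DNA methylation and trimethylation of lysine 27 on histone H3, in mouse T-helper 1 (Th1) cells. They were listed by symbol for their roles, by a rule with no threshold on a measured value although earlier results of these data were known, and all 10 were found among the 50600 genes of the files. Th1 cells are helper T cells known for secreting interferon gamma. The series holds 1 group of 3 libraries of primary Th1 cells of the strain C57BL/6NJ, numbered as biological replicates 1, 2 and 3 under 1 shared donor record, with no second condition, treatment or genotype. The linked protocol is one of CD4 T-cell differentiation, paths in the headers carry the words sorted and 72 hours, and sex and age are not known. Total RNA is the label of the assay, although the protocol attached for library making has polyadenylated RNA in its name.

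DNA methylation is copied at each round of replication by Dnmt1, which the protein Uhrf1 brings to half-methylated sites, while Dnmt3a and Dnmt3b methylate sites that had no mark. Tet1, Tet2 and Tet3 oxidise 5-methylcytosine, which is a step toward its removal. Ezh2, Eed and Suz12 form the core of Polycomb repressive complex 2 (PRC2), in which Ezh2 carries the methyltransferase activity, Eed binds the finished mark and Suz12 holds the complex together. In T cells these enzymes are known for keeping genes of other fates silent and for letting cytokine genes open as a fate is set.

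The libraries held 4482916, 266790 and 3733531 counts in replicates 1, 2 and 3, and the 10 genes took 5884, 349 and 3642 of them. That was 0.131%, 0.131% and 0.0975% of each library. Levels are given as TPM, the share of a library taken by a gene after division by exon length, as mean ± SD over the 3 libraries. The fragments were counted on 1 strand only, and every level below is that of the counted strand. Gm20721, which faces Gnas, had 36404, 2418 and 43464 counts in replicates 1, 2 and 3, while Gnas had 1995, 107 and 1130. On the mitochondrial genome the light-strand gene mt-Nd6 had 18316, 1673 and 13631 counts, while mt-Co1 on the other strand had 10721, 546 and 5027. Whether the counted strand was that of the RNA was not tested, so no level below is given as that of a messenger RNA. Of the 10 genes, 5 have exon bases in common with a gene on the other strand (Dnmt3a, Tet2, Ezh2, Eed and Suz12), and they are called overlapped below. All 6 marker genes of T cells and the Th1 fate had a mean above 10 TPM, although Cd3e, a chain of the T-cell receptor complex, had 292, 1 and 157 counts and 1.90 TPM in replicate 2. Of 12 markers of other cell types, 10 had 0 counts in every library, and the list summed to between 4.63 and 12.0 TPM per library. Cd79a, a B-cell gene, had 8.23 ± 4.00 TPM (11, 2 and 31 counts), and its part in the results was not tested. In bulk RNA, fewer cells expressing a gene and less RNA per cell cannot be told apart.

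The 2 genes of maintenance methylation were among the higher of the 10. Dnmt1 had 126, 112 and 87.9 TPM in replicates 1, 2 and 3, from 1943, 107 and 1321 counts. Its mean of 109 ± 19.3 TPM was the highest of the 10 genes, and it stood at percentiles 92.4, 92.1 and 92.0 among the 10408 protein-coding genes with a mean of at least 1 TPM. Dnmt1 lies on chromosome 9 from 20907209 to 20959888 on the minus strand of mm10, and its exons have no overlap on the other strand. Uhrf1, the reader of half-methylated DNA, had 111, 60.0 and 63.3 TPM, a mean of 78.1 ± 28.5. It lies on the plus strand of chromosome 17 from 56303321 to 56323486, also with no overlap. Replicate 1 was the high library for Uhrf1, and the 95% counting interval of replicate 2, from 41.3 to 84.2 TPM on 33 counts, covered the value of replicate 3. Dnmt1 exceeded Uhrf1 in 3 of 3 libraries, by a mean log2 ratio of 0.51 ± 0.36. Uhrf2, the paralog of Uhrf1 that does not replace it in maintenance, had 9.41 ± 3.68 TPM. Uhrf1 was above Uhrf2 by a log2 ratio of 2.93 ± 0.15 (3 of 3 libraries), the smallest SD of the 11 ratios computed. Replicate 2 held only 7 counts of Uhrf2 and 33 of Uhrf1, so this SD does not show that the ratio was steady.

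The de novo enzymes were lower. In mm10, Dnmt3a lies on the plus strand of chromosome 12 from 3806007 to 3914443, and Dnmt3b on the plus strand of chromosome 2 from 153649450 to 153687730. Dnmt3a (overlapped) had 10.7, 20.5 and 6.49 TPM in replicates 1, 2 and 3, a mean of 12.5 ± 7.17, from 371, 44 and 220 counts. Replicate 2 was the high library, and its 95% counting interval, from 14.9 to 27.5 TPM, did not reach either of the other values. Without replicate 2 the mean of Dnmt3a was 8.58 TPM. Dnmt3b had 4.40, 1.52 and 3.08 TPM, a mean of 3.00 ± 1.45. Only 1 fragment of Dnmt3b was counted in replicate 2, where 3 counts of this gene equal 4.55 TPM, so its level there was not measurable at this depth. Dnmt1 exceeded Dnmt3a by a log2 ratio of 3.14 ± 0.64 (3 of 3 libraries). In mean TPM that was 8.67-fold, and 12.5-fold without replicate 2. Dnmt3a was above Dnmt3b in 3 of 3 libraries, with log2 ratios of 1.11, 3.09 and 0.88 in replicates 1, 2 and 3. The mean TPM of Dnmt3a was 4.18-fold that of Dnmt3b, and 2.29-fold without replicate 2. Dnmt3l, the catalytically inactive partner of these enzymes in germ cells, had 0, 0 and 1 counts.

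The 3 TET genes were all below the median detected protein-coding gene, whose level was 15.1, 12.6 and 9.72 TPM in replicates 1, 2 and 3. Tet3 had 7.76, 6.03 and 5.21 TPM (mean 6.33 ± 1.31) and Tet2 (overlapped) had 4.79, 5.05 and 3.84 TPM (mean 4.56 ± 0.63). All 3 TET genes are on the minus strand, Tet1 on chromosome 10 (62804570 to 62908996), Tet2 on chromosome 3 (133463679 to 133545139) and Tet3 on chromosome 6 (83362373 to 83459084). The ranges of Tet3 and Tet2 did not overlap, and Tet3 was above Tet2 in 3 of 3 libraries, by a log2 ratio of 0.39 ± 0.19. Replicate 2 held only 13 counts of Tet3 and 11 of Tet2. The 95% counting intervals there, 3.21 to 10.3 TPM for Tet3 and 2.52 to 9.03 TPM for Tet2, overlapped. Tet1 had 7, 4 and 8 counts, which gave 0.222, 2.06 and 0.261 TPM. Its mean of 0.846 ± 1.05 TPM rested on the 4 counts of replicate 2, where 3 counts equal 1.54 TPM and the 95% counting interval ran from 0.560 to 5.26 TPM. Without replicate 2 the mean of Tet1 was 0.242 TPM, and the mean TPM of Tet3 was 26.9-fold and that of Tet2 17.9-fold that of Tet1. With replicate 2 the same ratios of means were 7.48 and 5.39. Tet1 was the lowest of the 3 in each library. The 3 TET genes together summed to 12.8, 13.1 and 9.31 TPM, while Dnmt1 and Uhrf1 together summed to 237, 172 and 151 TPM.

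**Figure D1:**
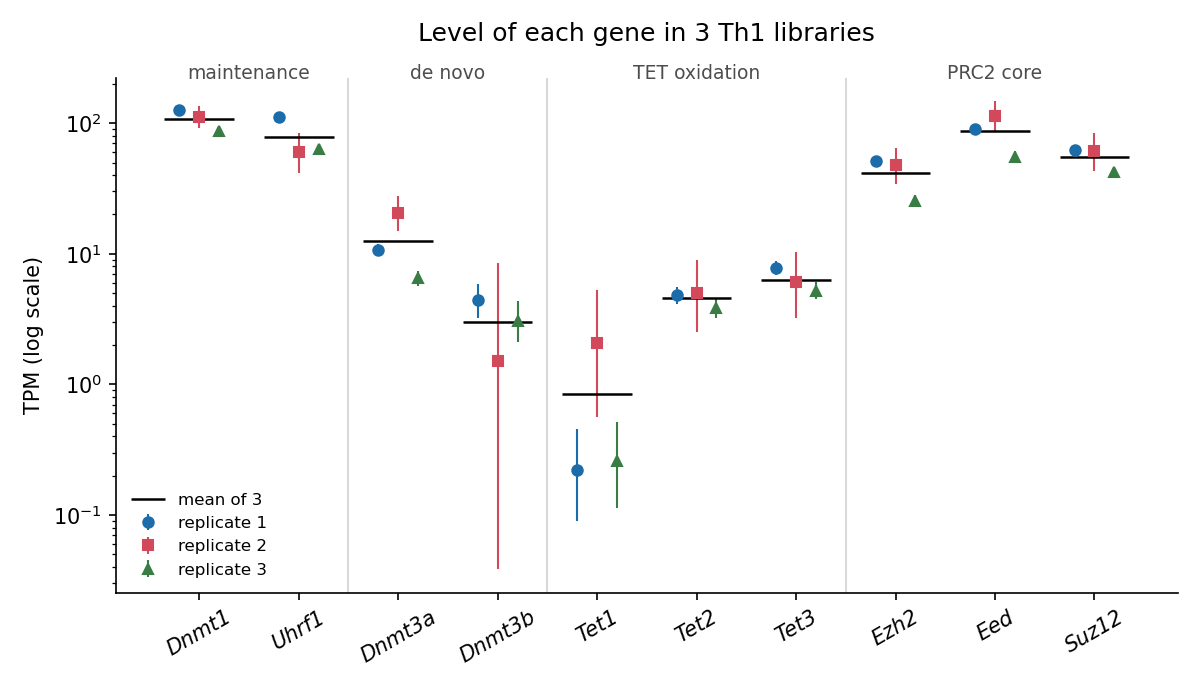
TPM of the 10 genes on a log axis in the 3 Th1 libraries, by role. Points are libraries with 95% counting intervals and black bars are means of 3. Dnmt1, Uhrf1 and the PRC2 genes lie between 25.4 and 126 TPM, while the de novo and TET genes lie between 0.222 and 20.5 TPM.

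All 3 core PRC2 genes were well detected, and all 3 are overlapped. Eed lies on chromosome 7 (89954654 to 89980983, minus strand), Suz12 on chromosome 11 (79993106 to 80034123, plus strand) and Ezh2 on chromosome 6 (47530139 to 47595341, minus strand). Eed had 91.1, 113 and 55.4 TPM in replicates 1, 2 and 3, a mean of 86.6 ± 29.2. Suz12 had 62.4, 61.0 and 42.2 TPM, a mean of 55.2 ± 11.3. Ezh2, the catalytic subunit, had 51.1, 47.5 and 25.4 TPM, a mean of 41.4 ± 13.9. Replicate 3 was the low library for all 3 genes, as it was for 51.9% of the detected protein-coding genes. Within each library the order was the same, with Eed above Suz12 (log2 ratio 0.60 ± 0.25) and Suz12 above Ezh2, whose log2 ratio to Suz12 was -0.45 ± 0.23 and to Eed -1.05 ± 0.21. The summed level of the 3 genes was 205, 222 and 123 TPM. Ezh1, the paralog of Ezh2 that is typical of cells that do not divide, had 71, 1 and 29 counts and 2.51 ± 1.84 TPM. Ezh2 exceeded Ezh1 by log2 ratios of 3.23, 4.57 and 3.18, and its mean TPM was 16.5-fold that of Ezh1, or 11.8-fold without replicate 2.

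**Figure D2:**
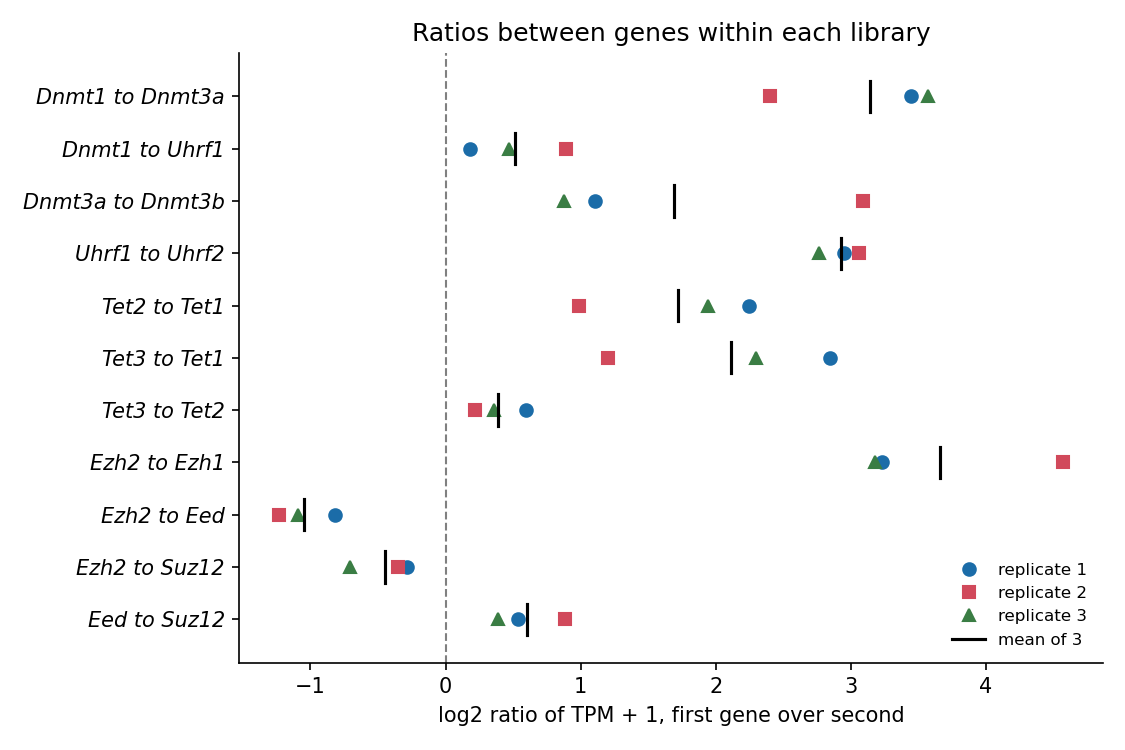
Log2 ratio of TPM + 1 between the first and the second gene of each pair within each of the 3 libraries, with the mean of 3 as a black bar. For 9 of the 11 pairs the first gene is higher in every library, and for Ezh2 to Eed and Ezh2 to Suz12 the first gene is lower in every library.

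By mean level the order of the 10 genes was Dnmt1, Eed, Uhrf1, Suz12, Ezh2, Dnmt3a, Tet3, Tet2, Dnmt3b and Tet1. Neighbours in this order did not separate in every library. Dnmt1 was above Eed in 2 of 3 libraries, Eed above Uhrf1 in 1 of 3 and Uhrf1 above Suz12 in 2 of 3. Dnmt3b was above Tet1 in 2 of 3, with 1 and 4 counts in replicate 2, so none of these steps held in every library. Over wider steps, Dnmt1 was above Uhrf1 and Eed above Suz12 in 3 of 3 libraries. The widest step between neighbours was that from Ezh2 to Dnmt3a, with a log2 ratio of 1.72 ± 0.50, in 3 of 3 libraries and with no overlap of their ranges. Besides this step, the ranges were apart only between Tet3 and Tet2, which had 13 and 11 counts in replicate 2. A sign-flip test of 1 ratio over 3 libraries cannot go below an exact p of 0.25, so no p is given for the ratios.

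To place the genes among all others, each level was set against the median protein-coding gene of the same library on the log2(TPM + 1) scale, with limma over the 10408 detected genes. Tet1 did not reach the mean of 1 TPM and was not tested. Of the 9 genes tested, 5 were higher than the median gene, where 31.2% of all genes tested were, and 3 were lower, where 25.6% were. Dnmt1 was above the median by 3.03 ± 0.04 (SD, 3 of 3 libraries; limma, adjusted p = 0.00203) and Eed by 2.66 ± 0.36 (3 of 3; limma, adjusted p = 0.00346). The others above it were Uhrf1 by 2.52, Suz12 by 2.06 and Ezh2 by 1.61, with limma adjusted p between 0.00361 and 0.0082. Dnmt3b was below the median by a difference of -1.80, Tet2 by -1.26 and Tet3 by -0.87 (limma, adjusted p = 0.0115, 0.0122 and 0.0268), each in 3 of 3 libraries. Dnmt3a differed by -0.11 ± 0.66 and did not pass (limma, adjusted p = 0.80), with replicate 2 alone above the median. The calls depended on the number of libraries. Without replicate 1, of these 8 genes only Dnmt1 and Eed still passed, the limma adjusted p of the other 6 lay between 0.0517 and 0.154, and 12.2% of all genes were then higher and 1.21% lower. Without replicate 3 the limma adjusted p was 0.057 for Ezh2, 0.055 for Dnmt3b, 0.0823 for Tet2 and 0.146 for Tet3. Tet1 entered the test in both of these settings, where its mean reached 1 TPM, and was lower than the median (limma, adjusted p = 0.0458 without replicate 1 and 0.0479 without replicate 3). With no filter beyond 1 count, Tet1 was lower (limma, adjusted p = 0.00573), while Tet2 and Tet3 did not pass (limma, adjusted p = 0.146 and 0.777). Tet3 did not pass among genes with no overlap either (limma, adjusted p = 0.19).

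**Figure D3:**
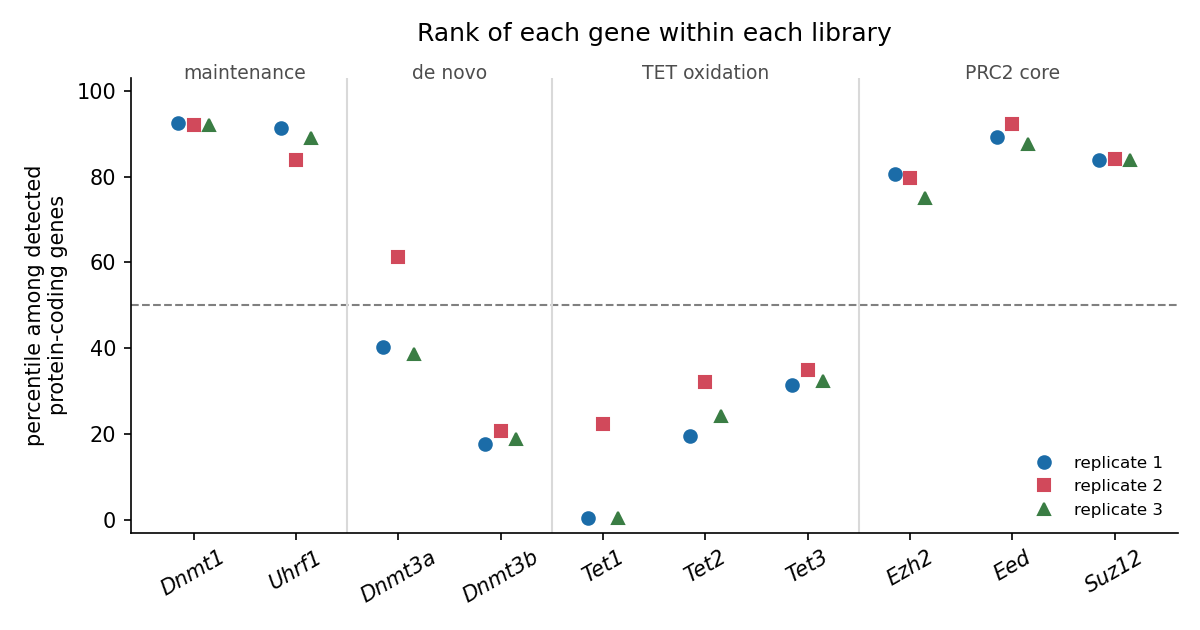
Percentile of each of the 10 genes among the 10408 detected protein-coding genes within each of the 3 libraries, with the dashed line at the median. Dnmt1 stays between 92.0 and 92.4, while Dnmt3a is at 61.3 in replicate 2 and at 40.3 and 38.6 in replicates 1 and 3.

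Differences between the libraries were tested per gene with a chi-square test on the counts against TMM-scaled library sizes, which holds counting error only. A gene was called at an adjusted p under 0.05 and a ratio of at least 2 between the highest and the lowest library. Of the 9 genes with a mean count of at least 10, 1 was called, against 32.2% of all 11595 genes tested. That gene was Dnmt3a (overlapped), with 78.6, 154 and 66.4 TMM-scaled CPM in replicates 1, 2 and 3, a ratio of 2.32 and a chi-square adjusted p of 5.44e-06. It was not called without replicate 2 or without replicate 3. Uhrf1, Ezh2 and Eed also had an adjusted p under 0.05 in the chi-square test, with ratios of 1.81, 1.45 and 1.51 that stayed under 2. Dnmt1 had 412, 375 and 398.5 TMM-scaled CPM, a ratio of 1.10 and a chi-square adjusted p of 0.523. Suz12 had 137, 137 and 128 TMM-scaled CPM, a ratio of 1.07, while its TPM was lowest in replicate 3. In that replicate 66.5% of the counts lay in overlapped genes, compared with 51.7% and 55.1% in replicates 1 and 2. The part of this in the TPM values was not tested. Spread beyond counting error, as the biological coefficient of variation of edgeR, had a median of 0.314 over the 9 of these genes that passed its filter, beside 0.324 over all 9589 genes. The values per gene are shrunk toward a spread shared over genes, and for these 9 they lay between 0.31 (Dnmt3a) and 0.331 (Dnmt3b). The nearness of the medians therefore does not show how much these genes varied.

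The PRC2 genes face noncoding genes that were themselves highly counted. Gm26625, a long intergenic noncoding RNA gene in the annotation, has 174 exon bases in common with Ezh2 in merged exons 11 and 12 of 21, and it had 1040, 50 and 1365 counts while Ezh2 had 714, 41 and 346. Gm26563 has 178 bases in common with merged exon 11 of 17 of Suz12, and it had 1264, 101 and 1842 counts while Suz12 had 645, 39 and 425. E230029C05Rik has 261 bases in common with the first exon of Eed and had 605, 25 and 764 counts while Eed had 729, 56 and 432. Per length, Gm26625 and Gm26563 averaged 204 ± 56.3 and 213 ± 42.1 TPM, above the levels of Ezh2 and Suz12, while E230029C05Rik averaged 47.9 ± 15.2 TPM, below Eed. The ratio of facing gene to PRC2 gene was highest in replicate 3 for all 3 pairs, at 3.95 for Ezh2, 1.77 for Eed and 4.33 for Suz12, against 1.46, 0.830 and 1.96 in replicate 1 and 1.22, 0.446 and 2.59 in replicate 2. The part of the facing genes in the levels of Ezh2, Eed and Suz12 was not tested. All these counts are those of whole genes, not split between shared and unshared bases. The part of the shared bases in the levels of the facing genes was not tested either. The genes facing the other overlapped genes had few counts: Dnmt3aos, which faces Dnmt3a over 133 bases, had 1, 0 and 12 counts, and Gm42567, which faces Tet2 over 43 bases, had 0 in each library.

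**Figure D4:**
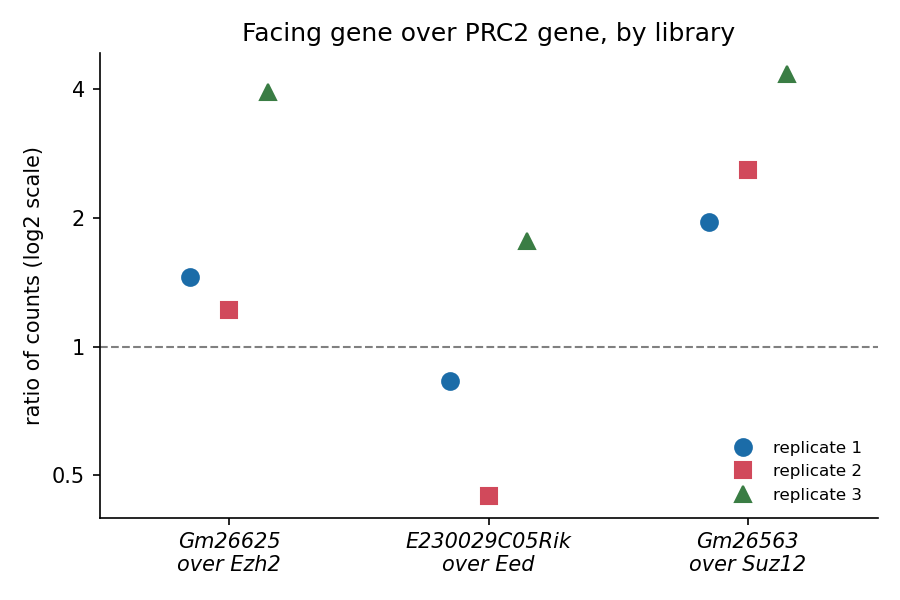
Ratio of the counts of the facing gene to those of the PRC2 gene in the 3 libraries, on a log2 axis with the dashed line at equal counts. Replicate 3 is the highest library for each pair, from 1.77 for E230029C05Rik over Eed to 4.33 for Gm26563 over Suz12.

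Over such shared bases only the strand of a fragment decides which gene it is counted for. The stretch in common is shown for Suz12, whose facing gene had the highest ratio of counts, read 5′ to 3′ on the strand of Suz12 from a GENCODE transcript on GRCm38. It is coding and is the whole overlap of 178 bases, at chr11:80022092-80022269 on the plus strand.
Suz12: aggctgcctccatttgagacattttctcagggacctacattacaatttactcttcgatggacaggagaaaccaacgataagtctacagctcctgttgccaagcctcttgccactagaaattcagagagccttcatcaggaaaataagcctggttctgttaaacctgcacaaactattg

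Other genes of the same pathways gave context for these levels. Of the 10 genes, 9 reached a mean of 1 TPM and 6 reached 10 TPM, with a median of 27.0 TPM. Over all 21764 protein-coding genes, 47.8% reached 1 TPM and 27.3% reached 10 TPM, and the median of those detected was 12.8 TPM. All 9 further PRC2 subunits reached 1 TPM and 6 reached 10 TPM, with a median of 21 TPM. The histone-binding subunit Rbbp7 (overlapped) led with 171 ± 45.5 TPM, followed by the accessory subunit Aebp2 at 50.7 ± 12.4. Phf1, an accessory subunit that reads histone H3, was next to lowest after Ezh1 at 4.44 ± 4.17 TPM, with 0 counts in replicate 2. All 19 subunits of Polycomb repressive complex 1 (PRC1), which ubiquitinates histone H2A, reached 1 TPM and 9 reached 10 TPM, with a median of 9.73 TPM. The highest was Pcgf5, a subunit of its variant form, at 82.3 ± 34.8 TPM, and the ubiquitin ligase Rnf2 (overlapped) followed with 51.5 ± 33.5. Rnf2 had 30.0, 90.0 and 34.4 TPM in replicates 1, 2 and 3, with a mean of 32.2 without replicate 2. The lowest PRC1 means were those of the chromodomain subunits Cbx8 at 1.53 ± 1.56 TPM and Cbx2 at 3.86 ± 3.42, both with 0 counts in replicate 2. Rybp and Phc1 had nearly the same mean as Cbx2, at 3.88 and 3.89 TPM, and without replicate 2 Cbx2 was above both, with 5.80 TPM against 2.55 for Rybp and 3.64 for Phc1.

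Genes of lysine 27 demethylation and of ubiquitin removal from histone H2A were at intermediate levels. All 5 reached 1 TPM, with a median of 12.6 TPM. Asxl1 (overlapped) and Bap1, partners in removing ubiquitin from histone H2A, had 25.3 ± 5.94 and 19.1 ± 7.97 TPM. Kdm6b (overlapped), a demethylase of lysine 27, had 11.7 ± 3.63 TPM, and Asxl2 (overlapped), a relative of Asxl1, was lowest at 7.22 ± 1.85.

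Among partners and paralogs of the DNA methyltransferases, 4 of 6 reached 1 TPM. Cdca7, which with the remodeller Hells helps methylation reach packed chromatin, had 56.0 ± 17.2 TPM, and the deubiquitinase Usp7, which binds Dnmt1 and Uhrf1, had 47.9 ± 14.4. Besides Dnmt3l, Trdmt1, a methyltransferase of transfer RNA, was below 1 TPM at 0.628 ± 0.693. All 7 genes listed from the families that read methylated CpG reached 1 TPM, and 2 of them reached 10 TPM. Mbd3, a subunit of the NuRD complex, had 96.4 ± 22.0 TPM and Mbd2 had 61.5 ± 13.5, while the zinc finger readers Zbtb38 (4.28 ± 1.84) and Zbtb33 (overlapped, 4.87 ± 4.81) had the lowest means. Zbtb33 had 0 counts in replicate 2, and without that library its mean was 7.30 TPM. Of 7 genes of oxidised base repair and TET partners, 5 reached 1 TPM. The repair endonuclease Apex1 (overlapped) led with 172 ± 42.1 TPM, and Parp1 had 58.9 ± 18.8. Cxxc4 (overlapped), a binding partner of Tet2, had 0 counts in each library, and Cxxc5 had 7, 0 and 0. In the supply of the methyl donor all 5 genes reached 1 TPM, with the highest means in Mat2a (overlapped), which makes S-adenosylmethionine, at 71.7 ± 34.1 TPM, and Ahcy, which clears its product, at 63.8 ± 14.4. Mat2a was above Ahcy in replicate 2 alone, and without it the means were 54.1 TPM for Mat2a and 64.0 TPM for Ahcy. Mat2b, the regulatory partner of Mat2a, had 11.4 ± 6.56 TPM. The 8 genes of S phase and proliferation had a median of 110.0 TPM and all reached 10 TPM.

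**Figure D5:**
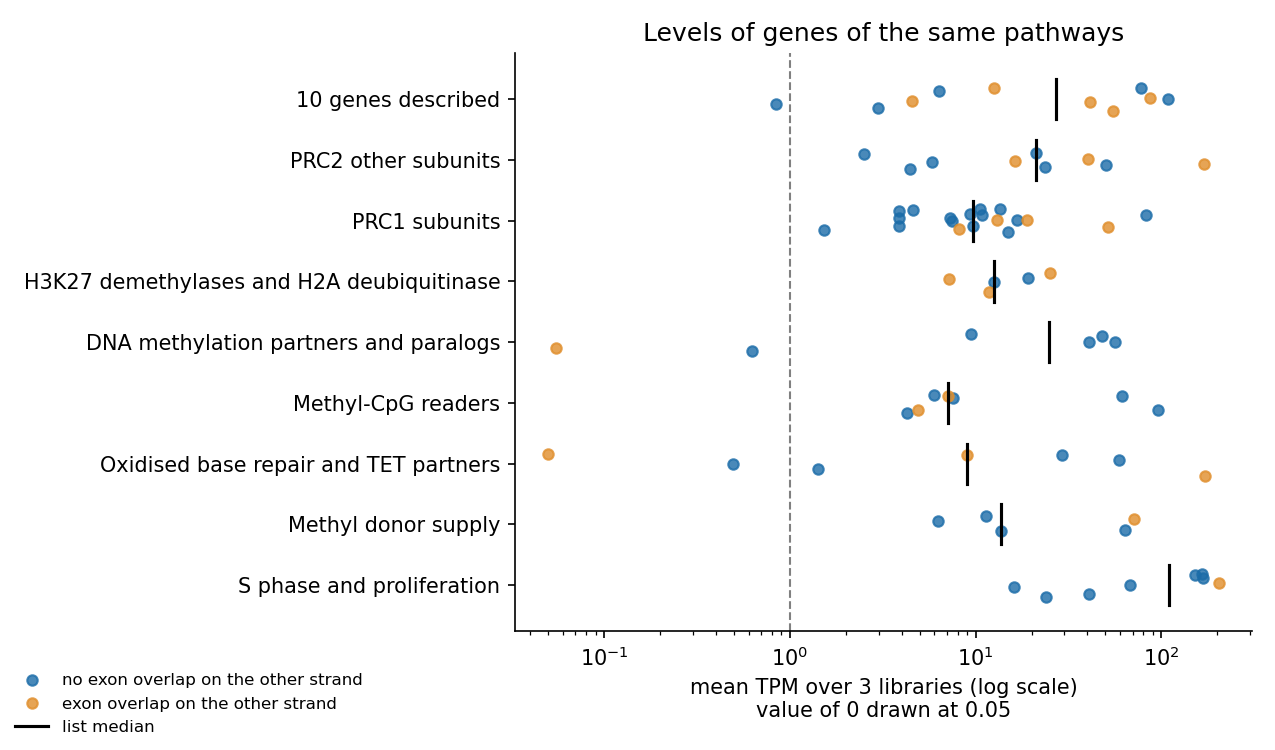
Mean TPM over 3 libraries of each gene in 9 lists, on a log axis, with list medians as black bars and the dashed line at 1 TPM. Orange points are genes with an exon overlap on the other strand. The 10 genes have a median of 27.0 TPM, the other PRC2 subunits 21 and the PRC1 subunits 9.73.

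The 10 genes had matches in the RefSeq promoter table (GRCm38.p6), as 15 windows of 300 bases, from 250 before to 50 after a transcript start. CpG dinucleotides, the sites that the DNA methyltransferases act on, numbered a median of 30 per window, compared with 7 over all 32851 windows. The Tet2 window held 57, at percentile 99.8, and Dnmt3a held 47 and 46 in 2 of its 3 windows. The lowest was the farthest upstream of the 3 Dnmt1 windows, with 2 CpGs, while another Dnmt1 window held 33. The E2F motif, bound by factors that drive S phase genes, was searched on both strands in its 4 forms TTTCCCGC, TTTCGCGC, TTTGCCGC and TTTGGCGC. It was found in 4 of the 15 windows, in Dnmt1, Uhrf1, Ezh2 and Suz12, compared with 2.26% of all windows. Every form holds a CpG, and among windows with 30 or more CpGs the share was 5.06% of 3837, with 4 of 8 windows of these genes. The motif was chosen with the levels known, and a match is a description of the letters and not of binding. The 4 genes with a match are among the 5 highest of the 10, while Eed, the other of those 5, had 0 matches. A link between the motif and the level was not tested. The stretches of 30 bases around each match are shown with the motif in capitals, 5′ to 3′ on the strand of the gene. They lie at chr9:20952824-20952853 and chr9:20952574-20952603 for Dnmt1 (minus strand), chr17:56304117-56304146 for Uhrf1 (plus strand), chr6:47595009-47595038 for Ezh2 (minus strand) and chr11:79992876-79992905 for Suz12 (plus strand). The first Dnmt1 stretch holds the motif on the opposite strand, and no match overlaps another.
Dnmt1, first: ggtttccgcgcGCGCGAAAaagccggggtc
Dnmt1, second: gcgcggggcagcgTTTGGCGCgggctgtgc
Uhrf1: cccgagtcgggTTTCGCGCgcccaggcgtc
Ezh2: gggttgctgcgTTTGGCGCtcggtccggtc
Suz12: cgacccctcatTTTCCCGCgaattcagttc
The CCAAT box (CCAAT, both strands) was found in 8 of the 15 windows, of 6 of the 10 genes, compared with 37.4% of all windows.

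Among 3760 protein-coding genes with no overlap and a mean of at least 10 TPM, those closest to the mean log2(TPM + 1) of the 10 genes over the 3 libraries were Ice1, Tor4a and Git1. Their root mean square differences were 0.035, 0.0552 and 0.0626 on that scale, over 3 libraries only.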

How the data were processed

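RNA of 3 Th1 libraries was analysed as 1 group. The files deposited by the authors held raw counts per gene, made with featureCounts 1.4.6-p4 on GENCODE mouse release 13 (mm10) with strand setting 1, per the file headers. Under that setting read 1 must map to the gene's own strand. For the aligner, a version is not given in the sources used here. Each gene's deposited exon length, another column, was used for TPM. Of the 50600 genes, 50376 were named from GENCODE release 21 on GRCm38, and the unnamed ones took 0.158%, 0.171% and 0.298% of replicates 1, 2 and 3. Overlaps were computed from the deposited exons and held for 8189 genes (16.2%).

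The chi-square test used TMM sizes from edgeR 4.0.16, a mean count of at least 10, 3 counts as the least value of the lowest library and Benjamini-Hochberg adjustment over all genes tested. Placement against the median gene used limma 3.58.1, two-sided, with pseudocount 1 and adjustment over all 10408 genes. Adding 1 shrinks differences of low genes. DESeq2 1.42.0 gave alternative size factors. Means are over 3 libraries with sample SD. Exact Poisson intervals at 95% hold counting error only and not the spread between libraries. PCR copies are not separate molecules, so where copies were counted these intervals are too narrow. Nothing beyond the replicate numbers says that the libraries came from separate animals. The limma p-values rest on the spread between these samples, moderated with that of all genes tested. For Dnmt1 the SD was 0.041 and the standard error used was 0.206. The chi-square p-values rest on counting error only. The procedures were run on simulated data, with counting error only for the chi-square test and the same SD for every gene for limma. Those settings differ from these data, so the simulations do not give the error rates of the tests here. The genes, lists, pairs and motifs were chosen with earlier results of these data known. Named beside the 10 genes are those facing them, the genes of the pairs, the highest and lowest 2 of each list, list genes under 1 TPM and the 3 with the closest profile. Cd79a was named after its values were seen, as were Cd3e, Rybp, Phc1, Gm20721, Gnas, mt-Nd6 and mt-Co1. Lists were described by counts and medians with no test. Some items that this rule or the overlaps would name are not reported here.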

Additional observations from a re-analysis of the deposited data

How the results depend on the processing

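No paired analysis was possible because there is only 1 group. Leaving out 1 replicate moved the number of the 10 genes called between libraries, 1 of 9 tested, over a range of 0 to 1; the chi-square test still gave 2 genes with an unadjusted p under 0.05 in each of the settings with 0. That number was also 0 of 4 tested on genes with no opposite-strand overlap, where Dnmt3a was not tested and 2 genes had an unadjusted p under 0.05, and 2 with no filter beyond 1 count, where Tet1 was the second. The 5 genes higher than the median gene ranged from 2 to 5 with 1 replicate fewer, and were 2 among genes with no overlap, where the PRC2 genes were not tested. The number of lower genes, 3, ranged from 1 to 3 with 1 replicate fewer, the 1 being Tet1 in each case and Dnmt3b, Tet2 and Tet3 not passing. It was 1 at a mean of at least 5 TPM, where Tet2 and Dnmt3b were not tested. The difference of Dnmt3a from the median gene was 0.69 with no filter beyond 1 count and, with 1 replicate left out, lay between -0.43 and 0.06, so that 2 settings turned its sign, and was not called in any setting. With a pseudocount of 0.1 the log2 ratio of Tet2 to Tet1 was 2.88 and that of Tet3 to Tet1 3.33, and the other 53 of 55 recomputed ratios moved by less than 1 SD. Scaling TPM over genes with no overlap raised every mean, to 326 TPM for Dnmt1 and 120.3 TPM for Ezh2. The total then leaves out the signal of the overlapped genes, and Ezh2 is itself one of these. Among markers of other cell types 2 rather than 1 reached 1 TPM without replicate 2. The all-gene count between libraries, 3731, was 1201 on genes with no overlap, 1750 at a mean count of at least 100, and 1332 to 1941 with 1 replicate fewer. The median coefficient of variation of these genes ranged from 0.264 to 0.367. In replicate 2 depth limits Dnmt3b and Tet1, with 1 and 4 counts.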
